A study of Mus musculus with 12 samples.

Results

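The right and left ventricles of mouse hearts carrying the R14del mutation of phospholamban were compared in 3 RV and 3 LV samples labelled R14del-PLN, which are 6 of the 12 samples of the study. The members of the comparison were taken from the sample titles and genotype labels alone, where the titles write KO for R14del-PLN. Of 33641 genes listed for each sample, 12526 averaged 0.5 TPM or more across the 12 samples and were tested. TPM is a relative abundance per transcript length, so levels of different genes in a sample can be set side by side.

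The mice were 12 to 14 weeks old and of the strain labelled C57BL/6J, and the study's methods describe a hybrid line bred from chimeric 129/Sv-CP and C57Bl/6J males with Sox2-Cre mice. In every group, WT-PLN controls included, the human PLN coding sequence had been placed at the start codon of the mouse gene, so the controls are also knock-in mice. The methods describe the mutant mice used as male R14del/WT heterozygotes, and the labels give neither sex nor zygosity. Flash-frozen ventricle was used whole, so the values average over myocytes and all other cells. The labels do not say whether an LV and an RV sample with the same number came from the same heart, and p-values measure the spread between these samples only.

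Phospholamban is a small membrane protein that slows SERCA2a, the pump that returns calcium to the sarcoplasmic reticulum, and R14del removes an arginine from its cytosolic part. The RV pumps against the low pressure of the lungs and the LV against the high pressure of the body, and the wall of the LV is thicker. The chambers also have separate embryonic origins, since most RV and outflow tract muscle comes from the second heart field and most LV muscle from the first. Genes of wall stress, such as the natriuretic peptides and skeletal actin, and channels of repolarization are known to differ in level between regions of the ventricles.

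The 6 R14del-PLN samples each had 17924 to 18553 genes above 0. Because TPM values of each sample sum to 1000000, read numbers are unknown and counting error was not estimated. Mitochondrially encoded genes took 51.2%, 50.4% and 37.3% of TPM in LV samples 1, 2 and 3 and 51.4%, 51.1% and 54.5% in RV samples 1, 2 and 3. LV replicate 3 therefore stood apart with a low mitochondrial share, which leaves more of the fixed total to every other gene. RV replicate 3 stood apart in another way, since its run name differs from that of the other 11 samples. The mean mitochondrial share was 6.06 percentage points higher in RV (two-sided exact permutation test, p = 0.2, where 3 against 3 allows no p below 0.1). Defining ventricular transcripts were abundant in all 6 samples, with Myl2, the ventricular regulatory light chain, between 10599 and 16486 TPM.

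Across all genes, no gene passed the test between RV and LV of R14del-PLN hearts. The call required an adjusted p of at most 0.05 (limma, Benjamini-Hochberg) and a fold change of at least 1.5, and 0 of 12526 genes met it (0%). The smallest adjusted p was 0.324, for Gstp2. At an unadjusted p under 0.05, 63 genes were higher in RV (0.503%) and 760 were lower in RV (6.07%), and the median log2 fold change (RV minus LV, on log2(TPM + 1)) over all genes was -0.076. The excess of lower genes depended on the scale. After quantile normalization, which gives every sample the same distribution, 570 genes were higher (4.55%) and 541 lower (4.32%) at the same limit. With mitochondrially encoded genes removed and TPM rescaled before the filter, 13606 genes were tested, of which 788 were higher and 282 lower. Without LV replicate 3, 193 genes were higher and 295 lower, and without RV replicate 3, that is within 1 run, 115 were higher and 411 lower. The median over all genes moved as well, to 0.0026 under quantile normalization, 0.057 without mitochondrially encoded genes and 0.024 without LV replicate 3. It was -0.030 without RV replicate 3 and 0.068 without both replicate 3 samples. In the samples themselves, the LV and RV ranges did not overlap for 158 genes that were higher in RV (1.26%) and 1092 that were lower (8.72%). The typical standard error of a log2 fold change was 0.154, and the typical 95% interval extended 0.332 to each side, so smaller differences could not be resolved with these samples. That interval is for a single gene without adjustment. Larger differences also failed the adjusted test, such as -2.25 for Nppb, so the lack of calls does not mean that large differences were absent.

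The WT-PLN ventricles were used to read the same comparison in hearts without the mutation. Of the 823 genes at an unadjusted p under 0.05 in R14del-PLN hearts, 796 had the same sign in WT-PLN hearts and 503 were also at p under 0.05 there, where 75.8% of all genes tested had the same sign in both. At that limit, 82 of all genes tested were higher (0.655%) and 1729 lower (13.8%) in the RV of WT-PLN hearts. The median log2 fold change over all genes was -0.165 there. The difference between genotypes in the chamber effect was tested as an interaction, where 0 genes passed and 127 (1.01%) were at an unadjusted p under 0.05. Averaged over both genotypes, a contrast added after the values had been seen, 33 genes passed the test, 7 higher in RV (0.0559%) and 26 lower (0.208%). These 33 were chosen on values of both genotypes, which largely fixes that all had the same sign in each and that the R14del-PLN ranges of 29 did not overlap. The exceptions were Gnb3, Mstn, Gm42417 and Fuca2. Ramp3 and Mstn were the 2 of the 33 with an interaction at an unadjusted p under 0.05. The number that passed rested on single samples. It was 0 without RV replicate 3 and 4 without LV replicate 2 or without LV replicate 3 of R14del-PLN hearts, and 0 without both replicate 3 samples. It was 0, 16 and 63 without LV replicates 3, 2 and 1 of WT-PLN hearts, and 11 and 3 without RV replicates 1 and 3 of those hearts. Without RV replicate 2 of R14del-PLN hearts, 81 genes passed. Under quantile normalization 23 genes passed, 15 higher and 8 lower, of which 15 were shared (45.5% of the 33 and 65.2% of the 23). Below, a gene is said to have risen or fallen in RV only where it passed in this average, and values of R14del-PLN hearts are given first. Counts of list members at an unadjusted p under 0.05 are to be read beside the shares over all genes tested. In R14del-PLN hearts these were 0.503% higher and 6.07% lower as deposited, and 4.55% higher and 4.32% lower under quantile normalization.

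**Figure D1:**
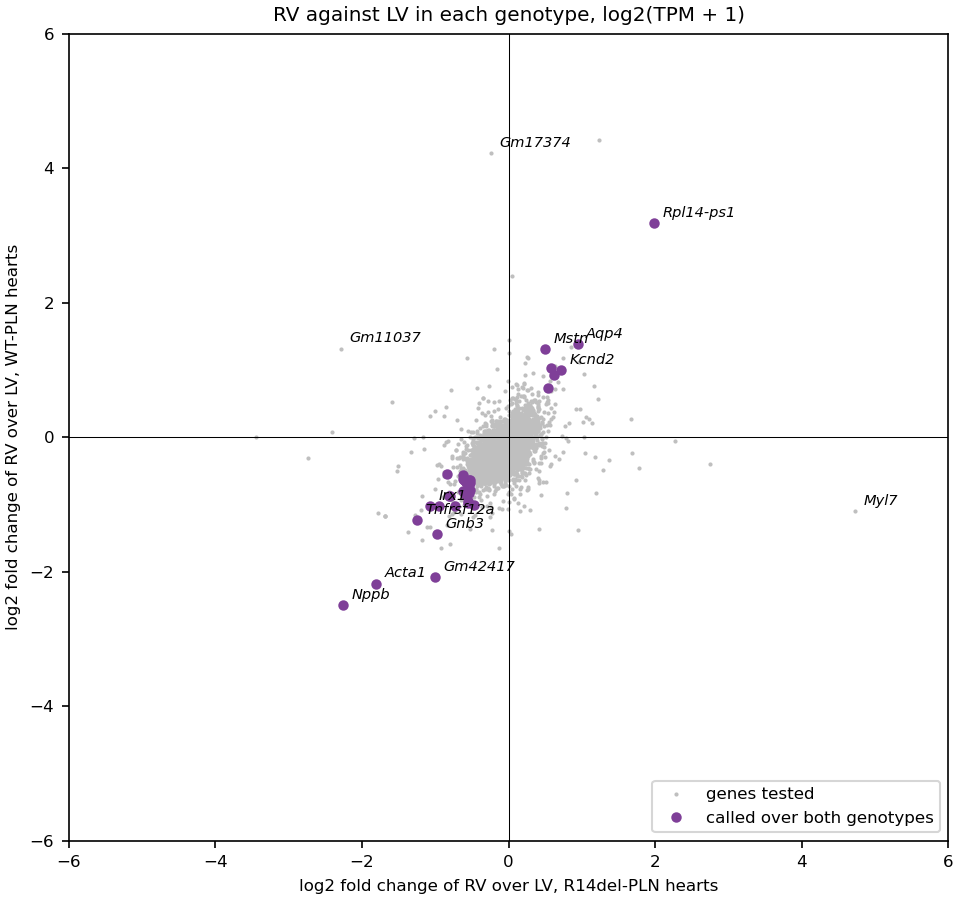
Log2 fold change between RV and LV of each tested gene in R14del-PLN hearts (x axis) against WT-PLN hearts (y axis), on log2(TPM + 1), with large points for the 33 genes that passed the test over both genotypes and small grey points for the rest. All 33 have the same sign on both axes.

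Of the 26 genes that fell over both genotypes, Nppb and Acta1, of the natriuretic and fetal list, fell most. Nppb, which encodes brain natriuretic peptide, a hormone released on wall stretch, was at 178, 118 and 204 TPM in LV samples 1, 2 and 3 of R14del-PLN hearts. In RV samples 1, 2 and 3 it was at 10.9, 55.0 and 59.5 TPM. Every LV sample was higher than every RV sample, and RV sample 1 was the lowest by a wide margin. The log2 fold change was -2.25 ± 0.54 (SE), or 4.77-fold lower in RV on that scale, with an adjusted p of 0.711. Over both genotypes it fell by 2.37 ± 0.38 (SE) on the log2 scale (adjusted p = 0.0233). Leaving out 1 R14del-PLN sample at a time gave -2.66 to -1.49, the latter without RV replicate 1.

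Acta1, the skeletal muscle actin that is re-expressed in loaded ventricle, was at 66.4, 50.5 and 118 TPM in the LV samples and at 6.75, 38.3 and 30.7 TPM in the RV samples. The ranges did not overlap, and RV sample 1 was again the lowest. Its log2 fold change was -1.81 ± 0.52 (SE), with an adjusted p of 0.711. Over both genotypes it fell by 1.99 ± 0.36 (adjusted p = 0.0388). Acta1 overlaps Gm20388 on the opposite strand, and whether reads were counted by strand is not given in the sources used here. The cardiac actin gene Actc1, far more abundant, was between 5236 and 7270.4 TPM in LV and between 4499 and 4923 TPM in RV, a log2 difference of -0.32 ± 0.15.

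The promoters of Nppb and Acta1 are shown because both genes are textbook targets of the factors that read the M-CAT element (TEAD proteins) and, for Acta1, of SRF, which reads the CArG box. The sequences are from RefSeq on GRCm38.p6, with capitals marking the elements. M-CAT was searched as CATTCC on both strands, and the CArG box by its name, a pair of C, then A or T only, then a pair of G. For Acta1, the 250 bases before the RefSeq start are given (chr8:123894776-123895025, minus strand). The CArG box begins 73 bases and the M-CAT element 46 bases before that start. The GENCODE start of Acta1 lies further downstream, so both distances are longer by GENCODE. For Nppb, a 30-base site is given (chr4:147985783-147985812, plus strand), whose M-CAT element lies in reverse orientation and begins 105 bases before the RefSeq start. The annotations differ here too, since the GENCODE gene begins at 147985788, and by GENCODE the element lies inside the gene.
Acta1: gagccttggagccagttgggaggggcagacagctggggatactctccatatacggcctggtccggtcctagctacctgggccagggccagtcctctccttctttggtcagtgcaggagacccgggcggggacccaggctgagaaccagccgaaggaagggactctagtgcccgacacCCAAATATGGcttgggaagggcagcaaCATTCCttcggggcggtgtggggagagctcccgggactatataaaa
Nppb: gctcagccggcaGGAATGcagctgataaat
Of 32851 promoter windows of 250 bases, 12.6% held the M-CAT letters and 1.47% a CArG box, so a match is a description of the sequence and not a measured site.

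Nppb and Acta1 lie on chromosome 4 (147985788 to 147987205) and chromosome 8 (123891769 to 123894751) of GRCm38. Nppa, which encodes atrial natriuretic peptide, was at 141, 313 and 253 TPM in LV and at 132, 143 and 32.7 TPM in R14del-PLN RV. Its ranges overlapped, since LV sample 1 lay below RV sample 2, and its log2 fold change was -1.38 ± 0.64 (adjusted p = 0.762). Ankrd1, a stretch-responsive protein of the sarcomere, was at 932, 1215 and 1675 TPM in LV and 348, 1312 and 767 TPM in RV, also with overlap, and at -0.81 ± 0.39 on the log2 scale. Of 22 members of the natriuretic and fetal list, 4 were lower (Nppb, Acta1, Actc1 and Rcan1) and 1 higher (Myl7) at an unadjusted p under 0.05, with a list median of -0.14 on the log2 scale against -0.076 for all genes. That median was -0.035 under quantile normalization and turned to 0.021 without LV replicate 3 and 0.013 without mitochondrially encoded genes. In the same order, the medians over all genes were 0.0026, 0.024 and 0.057. The same list in WT-PLN hearts had 7 lower and 0 higher, with a median of -0.38. Over all genes of WT-PLN hearts, 13.8% were lower and the median was -0.165.

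Tnfrsf12a, the receptor of the cytokine TWEAK, was also lower in RV. It was at 32.1, 35.3 and 48.2 TPM in the LV and 9.45, 21.4 and 17.7 TPM in the RV samples of R14del-PLN hearts. The ranges did not overlap. Its log2 fold change was -1.25 ± 0.28 (adjusted p = 0.711), and over both genotypes it fell by 1.24 ± 0.20 (adjusted p = 0.0233). Within 1 run, that is without RV replicate 3, the log2 fold changes of R14del-PLN hearts were -2.66 for Nppb, -2.09 for Acta1 and -1.35 for Tnfrsf12a.

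**Figure D2:**
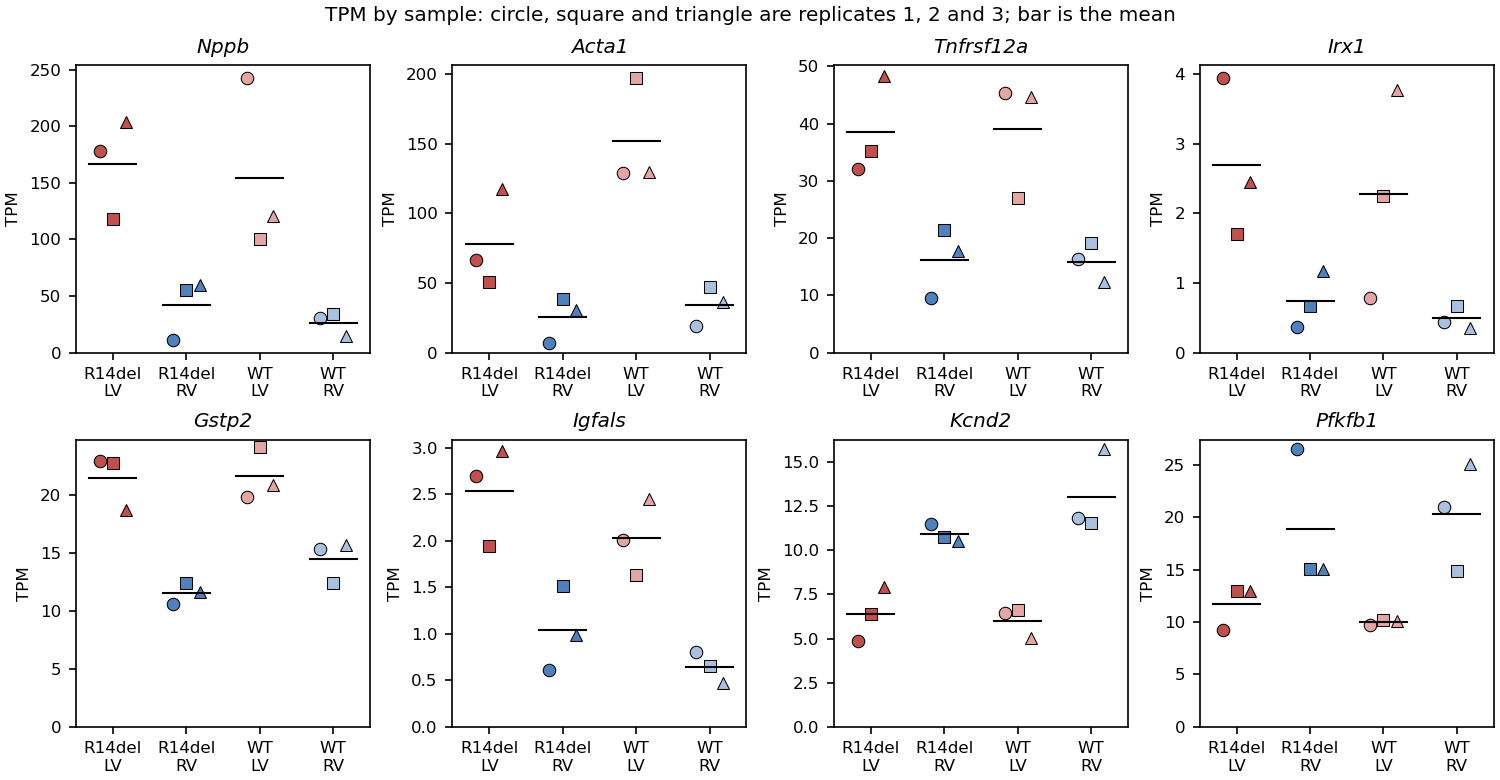
TPM of Nppb, Acta1, Tnfrsf12a, Irx1, Gstp2, Igfals, Kcnd2 and Pfkfb1 in each LV and RV sample of R14del-PLN and WT-PLN hearts on linear axes from 0, with a symbol for each replicate and a bar at the group mean. For Nppb and Acta1 the 3 RV points of R14del-PLN hearts lie below all LV points, and for Kcnd2 they lie above them.

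Among cardiac transcription factors, the smallest p values belonged to Iroquois genes. Irx1 was at 3.95, 1.70 and 2.45 TPM in LV and at 0.373, 0.673 and 1.16 TPM in R14del-PLN RV. All LV samples were above all RV samples. The log2 fold change was -1.07 ± 0.31 (adjusted p = 0.711), and over both genotypes Irx1 fell by 1.05 ± 0.22 (adjusted p = 0.0495). Its neighbour in the same gene cluster, Irx2, was at 2.89, 1.22 and 1.41 TPM in LV and 0.504, 0.220 and 0.748 TPM in RV. Its ranges did not overlap either, and its average over both genotypes, -0.90 ± 0.21, missed the threshold (adjusted p = 0.0576). Irx4, a ventricular member of the family, was at 9.70, 9.16 and 12.3 TPM in LV and 9.62, 11.4 and 9.65 TPM in RV, at -0.014 ± 0.15 on the log2 scale, a sign that turned under quantile normalization (0.072).

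The factors named for chamber identity in development did not pass the test. Tbx5, an LV and atrial factor of the embryo, was at 7.35, 6.63 and 8.11 TPM in LV and 8.86, 10.9 and 6.50 TPM in RV (log2 difference 0.20 ± 0.16, 95% interval -0.14 to 0.54). Its difference was 0.28 under quantile normalization (unadjusted p = 0.0276, adjusted p = 0.53) and 0.44 without both replicate 3 samples. Hand2, which the embryonic RV requires, was at 11.9, 13.6 and 16.0 TPM in LV and 14.4, 14.8 and 13.2 TPM in RV (0.043 ± 0.30, interval -0.60 to 0.69, and -0.053 without LV replicate 1). Hand1, its LV counterpart in the embryo, was listed at 0 in all 6 samples and was not tested. In all, 3 of 35 tested transcription factors were at an unadjusted p under 0.05, each lower (Irx1, Irx2 and Srf), and the list median was 0.0072. Under quantile normalization 8 were higher and 3 lower, where 4.55% of all genes were higher and 4.32% lower.

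Of 15 tested second heart field and outflow tract genes, 2 were at an unadjusted p under 0.05, both lower in RV. Eya1, a transcriptional coactivator of the second heart field, was at 1.10, 1.33 and 1.52 TPM in LV and 0.323, 0.569 and 0.338 TPM in RV. The ranges did not overlap, and its log2 fold change was -0.72 ± 0.15 (adjusted p = 0.711). In WT-PLN hearts the value was -0.20 ± 0.15, and the interaction of -0.52 did not pass the adjusted test. Nrp2, a receptor for semaphorins, was at 5.07, 5.97 and 6.94 TPM in LV and 3.77, 5.62 and 3.90 TPM in RV, with overlap through RV sample 2.

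Among action potential channels, the genes furthest from the null were higher in RV. Kcnd2, which encodes the Kv4.2 subunit of the fast transient outward potassium current, was at 4.84, 6.41 and 7.90 TPM in LV and 11.5, 10.8 and 10.6 TPM in R14del-PLN RV. Every RV sample was above every LV sample, and the RV samples were close to one another. The log2 fold change was 0.71 ± 0.17 (adjusted p = 0.711), and over both genotypes Kcnd2 rose by 0.86 ± 0.12 (adjusted p = 0.0200). Its values without 1 R14del-PLN sample ran from 0.56 to 0.86. Kcnd2 lies on chromosome 6 from 21215503 to 21729805.

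Cacna2d1, the auxiliary subunit of the L-type calcium channel, was at 25.3, 32.8 and 39.2 TPM in LV and 42.1, 51.5 and 44.7 TPM in RV, without overlap, and at 0.51 ± 0.17 on the log2 scale. Kcnj3, which encodes a subunit of the acetylcholine-gated potassium channel, was at 15.3, 16.8 and 17.1 TPM in LV and at 26.1, 23.1 and 17.5 TPM in RV (0.40 ± 0.18). These 3 genes were the members at an unadjusted p under 0.05 among 50 tested, all higher in RV, with a list median of -0.011. Kcnip2, which encodes a partner of Kv4 channels, was at 59.8, 48.4 and 83.8 TPM in LV and 53.0, 62.6 and 59.4 TPM in RV. Its ranges overlapped and its log2 difference of -0.099 ± 0.22 turned sign under quantile normalization (0.029).

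Calcium cycling transcripts overlapped between the ventricles for the genes at the centre of the study. Pln was at 1559, 1615 and 1716 TPM in LV and 1720.1, 1811 and 1649.9 TPM in R14del-PLN RV, a log2 difference of 0.083 ± 0.11 with a 95% interval of -0.15 to 0.31. Cep85l overlaps Pln on the opposite strand. How reads of the human coding sequence were assigned to the mouse gene is not given in the sources used here. Atp2a2, which encodes SERCA2a, was at 2386, 2639 and 3433 TPM in LV and 2711, 3016 and 2528 TPM in RV. Its log2 difference was -0.022 ± 0.16 (interval -0.36 to 0.32) and turned to 0.16 under quantile normalization and 0.13 without LV replicate 3.

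The release side of the sarcoplasmic reticulum was similar in spread. Ryr2, the calcium release channel, was at 67.7, 90.7 and 115 TPM in LV and 84.0, 134 and 88.2 TPM in RV (log2 difference 0.16 ± 0.25, and -0.050 without RV replicate 2). Casq2, the calcium store protein of the reticulum, was at 336, 297 and 514 TPM in LV and at 326, 297 and 330.4 TPM in RV (-0.23 ± 0.17, and 0.0072 without LV replicate 3). Camk2d, the main cardiac CaM kinase II, was at 56.2, 62.8 and 81.5 TPM in LV and 52.5, 87.5 and 62.6 TPM in RV, at 0.00019 ± 0.20 on the log2 scale. The ranges overlapped for all 3 genes.

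Gm34302, which the RefSeq table gives as the gene of the SERCA activator DWORF, was at 310.3, 440.1 and 454 TPM in LV and 169, 439.9 and 230.1 TPM in RV. RV sample 2 reached the LV level and samples 1 and 3 lay below it, and the log2 difference was -0.62 ± 0.32 (adjusted p = 0.81). In WT-PLN hearts it was -0.89 ± 0.32, and over both genotypes -0.75 ± 0.23 (adjusted p = 0.105). Of 40 tested calcium cycling genes, 3 were lower at an unadjusted p under 0.05 and 0 higher, with a median of -0.025. For all genes, 6.07% were lower and the median was -0.076. Orai1, the plasma membrane channel of store-operated calcium entry, was at 5.63, 5.14 and 5.41 TPM in LV and 4.80, 3.36 and 3.95 TPM in RV (-0.35 ± 0.14), without overlap. S100a1, a calcium sensor that acts on SERCA2a and the release channel, was at -0.31 ± 0.13 on the log2 scale. Under quantile normalization the list gave 3 higher and 1 lower.

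Sarcomere and Z-disc genes had 6 of 47 tested members lower and 0 higher at an unadjusted p under 0.05, with a median of -0.11. For all genes, 6.07% were lower and the median was -0.076. The list turned to 7 higher and 5 lower, with a median of 0.031, under quantile normalization. On that scale 4.55% of all genes were higher and 4.32% lower. Csrp3, the muscle LIM protein of the Z-disc, was at 1028, 1067 and 1417 TPM in LV and at 872, 801 and 908 TPM in RV (log2 difference -0.43 ± 0.13). The Z-disc adaptor Pdlim1 was at 48.9, 53.2 and 68.7 TPM in LV and 31.95, 45.8 and 40.2 TPM in RV, and over both genotypes it fell by 0.65 ± 0.13 (adjusted p = 0.0495). Neither gene's ranges overlapped. Myl3, the ventricular essential light chain, was at -0.39 ± 0.12 on the log2 scale. Myl2 was at 11622, 11167 and 16486 TPM in LV and at 10725, 13344 and 10599 TPM in RV, a log2 difference of -0.17 ± 0.15 that turned to 0.0073 under quantile normalization.

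Desmosome and intercalated disc genes, the group mutated in arrhythmogenic cardiomyopathy, had 1 of 26 members at an unadjusted p under 0.05 and a median of 0.00036. That member was Fhl2, a LIM protein of the sarcomere, at 861, 860.4 and 1258 TPM in LV and 612, 776 and 819.9 TPM in RV (-0.42 ± 0.18), without overlap. Dsg2, a desmosomal cadherin, was at 14.7, 17.8 and 22.3 TPM in LV and 23.7, 24.0 and 19.9 TPM in RV (0.30 ± 0.17). LV sample 3 lay above RV sample 3, so the Dsg2 ranges overlapped. After quantile normalization, 5 members of the group were higher and 0 lower at the same limit, where 4.55% of all genes were higher.

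At an unadjusted p under 0.05, 6.07% of all genes tested were lower in RV. In the adrenergic and adenylyl cyclase list, 2 of 37 tested genes were lower and 0 higher at that limit. They were Popdc3, a membrane protein that binds cyclic AMP, at 10.02, 10.002 and 12.3 TPM in LV and 7.57, 8.10 and 7.78 TPM in RV, and Gnb1, a G protein subunit, at -0.34 ± 0.16 on the log2 scale. The Popdc3 ranges did not overlap, and its log2 difference was -0.41 ± 0.15. Gnb3, another G protein β subunit gene, was at 4.79, 3.25 and 6.74 TPM in LV and at 0.905, 3.27 and 2.10 TPM in RV. RV sample 2 reached the lowest LV sample, and over both genotypes Gnb3 fell by 1.21 ± 0.22 (adjusted p = 0.0388). Ramp3, which modifies receptors for adrenomedullin, was at 1.97, 2.17 and 2.61 TPM in LV and 0.985, 1.91 and 1.21 TPM in RV, and fell by 0.74 ± 0.12 over both genotypes (adjusted p = 0.0233).

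Of 15 tested markers of vascular endothelium, the lining of blood vessels, 14 had a negative log2 fold change and 4 were lower at an unadjusted p under 0.05 (Tie1, Eng, Egfl7 and Ly6c1), with a median of -0.28 against -0.076 for all genes. Under quantile normalization 3 were lower and the median was -0.17, against 0.0026 for all genes. Without mitochondrially encoded genes it was -0.15, against 0.057 for all genes. In bulk tissue, fewer cells of a type and less RNA per cell cannot be told apart. Tie1, an endothelial receptor kinase, was at 13.6, 14.8 and 16.1 TPM in LV and 10.6, 11.4 and 9.49 TPM in R14del-PLN RV. The LV samples were all above the RV samples. Its log2 fold change was -0.46 ± 0.12 (adjusted p = 0.711) and -0.51 ± 0.085 over both genotypes (adjusted p = 0.0325), under the fold required for a call.

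Icam2, an adhesion molecule of endothelium, was at 10.9, 11.9 and 13.7 TPM in LV and at 8.21, 8.18 and 7.79 TPM in RV. There was no overlap, and over both genotypes Icam2 fell by 0.68 ± 0.083 (adjusted p = 0.0199), the smallest adjusted p of that average. Ly6a, which encodes the Sca-1 surface protein of endothelial and stromal cells, was at 58.0, 65.9 and 90.0 TPM in LV and 47.0, 42.6 and 49.4 TPM in RV, and fell by 0.63 ± 0.11 (adjusted p = 0.0352). Egfl7, a protein secreted by endothelium, and Ly6c1, an endothelial surface protein, were at -0.42 ± 0.13 and -0.55 ± 0.15 on the log2 scale in R14del-PLN hearts. The summed level of the 15 markers was 849, 954 and 1140 TPM in LV and 755, 882.5 and 737 TPM in RV, so the sums overlapped through RV sample 2. In WT-PLN hearts, 11 of the 15 were lower at the same limit and the median was -0.42, against 13.8% lower and a median of -0.165 over all genes there.

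For every other cell type, the summed level of the markers overlapped between LV and RV of R14del-PLN hearts. Working ventricular myocyte markers summed to 39830, 40750 and 55990 TPM in LV and 39680, 49070 and 37570 TPM in RV, with 2 of 12 lower (Myl3 and Actc1). Counts at an unadjusted p under 0.05 follow for the fibroblast, macrophage, smooth muscle, endocardial, lymphatic, lymphocyte, epicardial, skeletal muscle, conduction and valve lists. In that order they were 1 of 14 (Pi16, lower), 0 of 13, 1 of 13 (Vtn, lower), 0 of 7, 0 of 7, 0 of 1, 0 of 5, 0 of 2, 0 of 10 and 1 of 7 (Scx, lower). Scx, a tendon and valve transcription factor, was at 1.80, 1.26 and 1.41 TPM in LV and at 0.523, 1.05 and 0.547 TPM in RV, and over both genotypes it fell by 0.75 ± 0.13 (adjusted p = 0.0376). Among blood cell markers, 2 of 5 red cell genes were lower (Hbb-bs and Hbb-bt), and 1 of 3 tested neutrophil genes was higher (Mmp9), while the defining neutrophil genes Ly6g and Retnlg were listed at 0 in all 6 samples. Hbb-bt, an adult globin, was at 62.7, 87.6 and 133 TPM in LV and 49.3, 58.4 and 76.6 TPM in RV, with overlap. Cidec, a lipid droplet protein, was at 0.370, 0.369 and 0.925 TPM in LV and 2.85, 1.00 and 1.19 TPM in RV (0.74 ± 0.29). Another member of the 6 adipocyte genes, Thrsp, was lower. Mbp, a myelin protein, was at 0.721, 0.936 and 1.17 TPM in LV and 2.21, 3.08 and 0.956 TPM in RV (0.61 ± 0.24), with 2 of 4 Schwann cell genes higher.

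Atrial genes varied from sample to sample in RV. Myl7, the atrial regulatory light chain, was at 0.190, 0.440 and 0.329 TPM in the LV and 28.5, 212 and 5.75 TPM in the RV samples of R14del-PLN hearts. The RV samples lay above the LV samples but differed widely from one another. The log2 fold change was 4.73 ± 1.96 (adjusted p = 0.745), and 3.42 without RV replicate 2. Sln, the sarcolipin gene and an atrial regulator of SERCA, was at 0.0237, 0.142 and 0 TPM in LV and 1.79, 11.2 and 0.369 TPM in RV, in the same sample order as Myl7. Myl4, the atrial essential light chain, was at 4.05, 5.28 and 3.42 TPM in LV and 34.5, 155 and 6.74 TPM in RV.

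In WT-PLN hearts the order was not by ventricle. Myl7 was at 39.4, 0.512 and 299 TPM in LV and 1.35, 319.9 and 1.46 TPM in RV there. Sln was at 3.62, 0.0547 and 27.8 TPM in LV and 0.101, 36.9 and 0.301 TPM in RV of the same hearts. The samples high in Myl7 were thus high in Sln, and single samples of either chamber reached the level of the highest RV sample of R14del-PLN hearts. Whether atrial tissue was carried over in some samples was not tested. Of 12 tested atrial markers, 1 was higher at an unadjusted p under 0.05 (Myl7) and 0 lower.

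**Figure D3:**
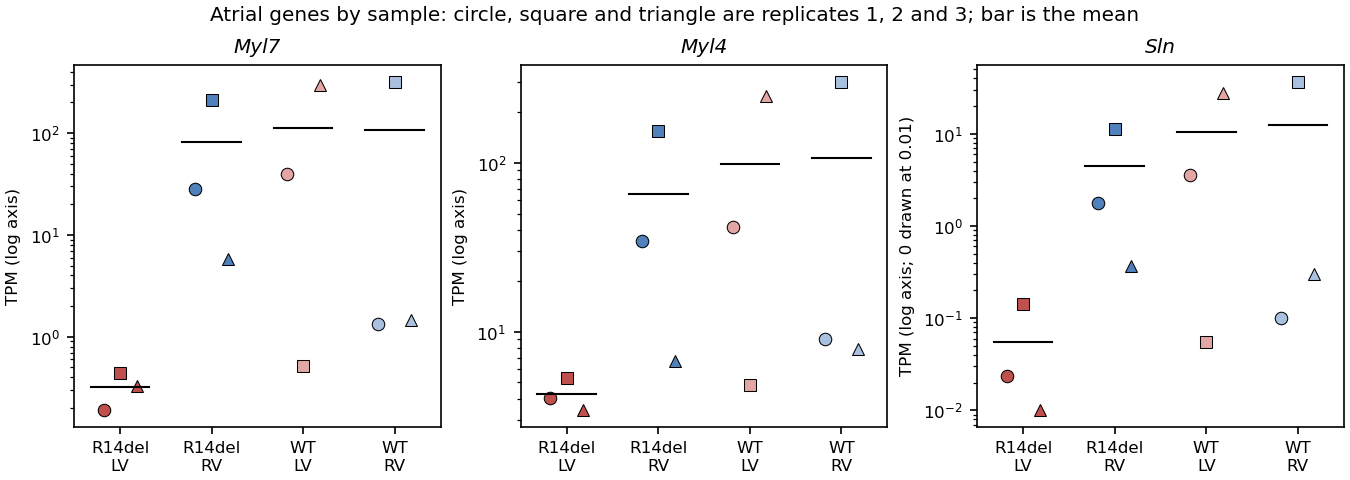
TPM of the atrial genes Myl7, Myl4 and Sln in each of the 12 samples on a log axis, with a symbol for each replicate and a bar at the group mean. In R14del-PLN hearts RV replicate 2 is the highest and all LV samples are low, and in WT-PLN hearts LV replicate 3 and RV replicate 2 are the highest.

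Mitochondrially encoded and nuclear-encoded respiratory chain genes had medians of opposite sign. Of 13 mitochondrially encoded genes, 12 had a positive log2 fold change, with a median of 0.10, and 1 was at an unadjusted p under 0.05. The median rested on LV replicate 3 and was 0.0053 without it. The gene at that limit was mt-Atp8, an ATP synthase subunit, at 68903, 65766 and 18804 TPM in LV and 73224, 80903 and 96835 TPM in RV. Its log2 fold change of 0.92 ± 0.36 rested on LV replicate 3 and was 0.30 without that sample. The next in order of p, mt-Nd4l, a complex I subunit, was at 37126, 41226 and 33647 TPM in LV and 36928, 63065 and 40741 TPM in RV, with overlap.

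Of 84 nuclear-encoded subunits of the respiratory chain, 28 were lower and 0 higher at an unadjusted p under 0.05, with a median of -0.22 on the log2 scale. For all genes, 6.07% were lower and the median was -0.076. The ranges lay apart for 21 of the 84, all lower, against 8.72% lower for all genes. The summed level of the list overlapped, at 45670, 45290 and 55960 TPM in LV and 45920, 39490 and 39560 TPM in RV. Ndufa2, a complex I subunit, was at 271, 279 and 299 TPM in LV and 233, 164 and 199 TPM in RV, without overlap (-0.52 ± 0.13). Ndufs7, another complex I subunit, was at 334, 336 and 405 TPM in LV and 303, 235 and 257 TPM in RV, also without overlap (-0.44 ± 0.12). Under quantile normalization, 4 members were higher and 4 lower and the median was -0.028, and without both replicate 3 samples the median was -0.069. Ndufaf8, an assembly factor of complex I outside the list, was at 34.3, 30.9 and 31.8 TPM in LV and 25.3, 15.4 and 21.2 TPM in RV (-0.65 ± 0.16).

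Of 49 fatty acid genes, 1 was lower and 0 higher at an unadjusted p under 0.05, which turned to 4 higher and 1 lower under quantile normalization. The lower gene as deposited was Fabp5, a fatty acid binding protein also found in endothelium, at 12.8, 15.2 and 17.3 TPM in LV and 11.7, 7.50 and 10.2 TPM in RV (-0.59 ± 0.17), without overlap. Eci1, which prepares unsaturated fatty acids for oxidation, was at -0.26 ± 0.13 on the log2 scale.

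Of 41 glycolysis and glycogen genes, 2 were higher (Pfkfb1 and Phkg1) and 1 lower (Gyg) at that limit, with a median of -0.053. Under quantile normalization 7 were higher and 0 lower, with a median of 0.085. Pfkfb1, which makes and removes the activator of phosphofructokinase, was at 9.19, 12.9 and 12.99 TPM in LV and 26.6, 15.1 and 15.1 TPM in RV. Every RV sample was above every LV sample, and over both genotypes Pfkfb1 rose by 0.77 ± 0.16 (adjusted p = 0.0495). Phkg1, the catalytic subunit of muscle phosphorylase kinase, was at 9.36, 12.98 and 15.4 TPM in LV and 24.4, 18.3 and 14.5 TPM in RV (0.56 ± 0.23), with overlap through RV sample 3.

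Cytosolic ribosomal protein genes were the list with the most members at an unadjusted p under 0.05. Of 83 tested, 80 had a negative log2 fold change, 39 were lower and 0 higher at an unadjusted p under 0.05, and the median was -0.31. Of all 12526 genes, 8809 were negative and 6.07% lower at that limit, with a median of -0.076. The LV and RV ranges lay apart for 9 of the 83, all lower, against 8.72% lower for all genes. The summed level of the list overlapped, at 16980, 17580 and 22280 TPM in LV and 17850, 14300 and 14380 TPM in RV. Quantile normalization left 7 lower and 0 higher, with a median of -0.12, and without LV replicate 3 the median was -0.18. Rps14, a small subunit protein, was at 237, 253 and 311 TPM in LV and 237, 165 and 175 TPM in RV (-0.48 ± 0.16). Rpl34, a large subunit protein, was at 31.8, 28.7 and 32.8 TPM in LV and 22.9, 26.1 and 18.1 TPM in RV (-0.47 ± 0.13). Its ranges did not overlap, and its level in WT-PLN hearts was between 192 and 255 TPM, so this gene also differed between genotypes. The pseudogene Rpl14-ps1, nearly identical to Rpl14, was at 9.87, 5.80 and 4.43 TPM in LV and 18.8, 46.0 and 25.6 TPM in RV. It rose by 2.58 ± 0.40 over both genotypes (adjusted p = 0.0209), and reads of Rpl14 could have been split with it.

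The ribosomal and nuclear-encoded respiratory chain lists are of short transcripts. The median log2 fold change between the groups went with transcript length over all genes. The 12248 nuclear genes with a length were cut into 5 parts by their longest annotated transcript. The shortest part, up to 1846 bases, held 78.3% of the ribosomal and 77.1% of the respiratory chain genes. The median log2 fold change in R14del-PLN hearts was -0.17, -0.10, -0.076, -0.054 and -0.025 from the shortest to the longest part. In the shortest part 374 genes (15.3%) were lower at an unadjusted p under 0.05, against 29 (1.18%) in the longest. Under quantile normalization the medians ran from -0.072 to 0.046, and in WT-PLN hearts from -0.23 to -0.11. Single samples were also read as log2 deviations from each gene's mean over the 12 samples. In R14del-PLN LV samples 1, 2 and 3, the median was -0.068, -0.033 and 0.26 in the shortest part. In the longest part it was -0.18, -0.046 and 0.20. The RV samples had -0.033, -0.14 and -0.19 in the shortest and -0.097, 0.13 and -0.14 in the longest part. RV sample 1 was thus ordered as the LV samples, and RV sample 2 had the widest gap the other way. Genes named singly as lower in RV were often short too, such as Nppb (781 bases), Gstp2 (797), Fam213b (883), Tnfrsf12a (984), Gpx4 (995) and Icam2 (1282). Irx1 (2373 bases), Igfals (2625) and Lsm1 (2663), also lower, lay outside the shortest part. Kcnd2 (5152 bases) and Cdk6 (11525), both higher, were longer. The share of RNA in short transcripts can move with RNA quality or library preparation as well as with the tissue. The part of each in these lists and genes was not tested.

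**Figure D4:**
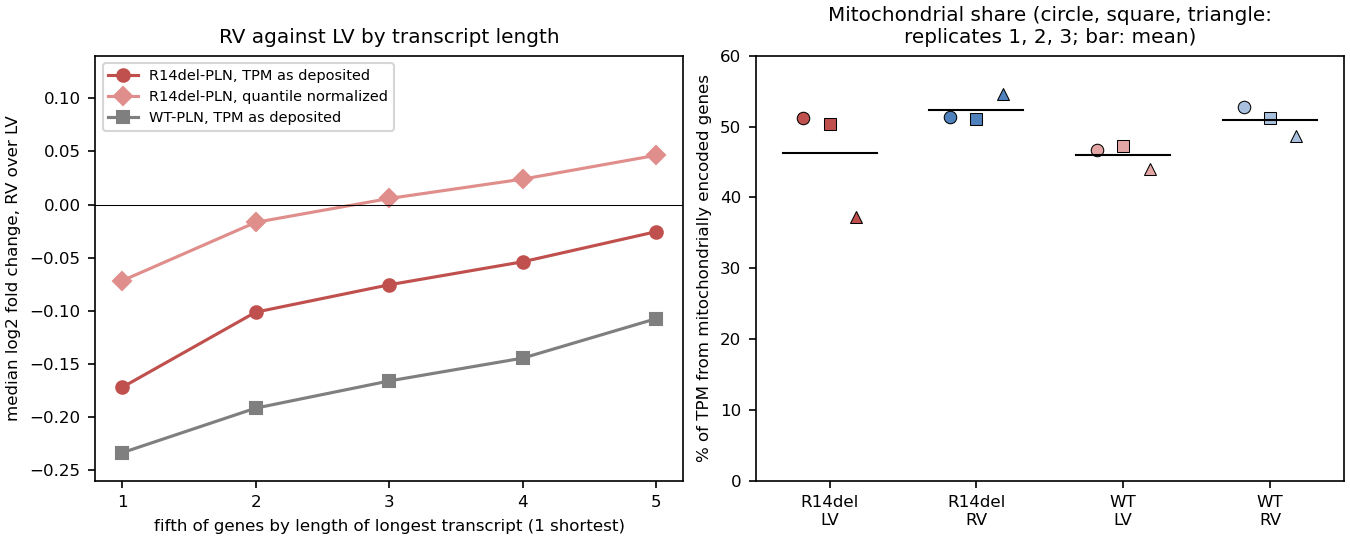
Median log2 fold change between RV and LV in 5 parts of the tested genes by transcript length for both genotypes, and the share of TPM in mitochondrially encoded genes in each sample (percent). The medians of R14del-PLN hearts run from -0.17 in the shortest to -0.025 in the longest part, and LV replicate 3 of R14del-PLN hearts has the lowest mitochondrial share at 37.3%.

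Immediate early genes had a median of -0.21 on the log2 scale, with 3 of 35 lower (Jund, Ier5 and Gadd45g) and 0 higher at an unadjusted p under 0.05. For all genes, the median was -0.076 and 6.07% were lower. Gadd45g, a growth arrest and DNA damage gene, was at 7.60, 7.52 and 9.84 TPM in LV and 4.72, 5.62 and 5.82 TPM in RV (-0.54 ± 0.15). Jund, a subunit of AP-1, was at 26.2, 29.5 and 25.8 TPM in LV and 21.6, 17.6 and 19.5 TPM in RV (-0.46 ± 0.15). Neither gene's ranges overlapped. Without LV replicate 3, the median of the list was -0.079.

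Heat shock and unfolded protein response genes had 4 of 42 lower (Hspb1, Hspb6, Hspb7 and Hsf1) and 0 higher, with a median of -0.14. For all genes, 6.07% were lower and the median was -0.076. Under quantile normalization 2 were higher and 2 lower, with a median of -0.024. Hsf1, the master factor of the heat shock response, was at 10.3, 10.9 and 13.02 TPM in LV and 8.90, 8.51 and 8.40 TPM in RV (-0.36 ± 0.11), without overlap. Hspb1, a small heat shock protein, was at 162, 135 and 174 TPM in LV and 113, 77.8 and 123 TPM in RV (-0.60 ± 0.23), again without overlap. Of 20 circadian clock genes, 0 were at an unadjusted p under 0.05. Bhlhe40, a repressor of clock genes, was at -0.24 ± 0.21 and Hlf, a clock output factor, at 0.24 ± 0.16 on the log2 scale.

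Of 58 tested collagen and matrix genes, 2 were lower (Col8a1 and Fbln2) and 1 higher (Ogn) at an unadjusted p under 0.05. The list median of -0.12 turned to 0.030 without LV replicate 3, where the median over all genes was 0.024. Fbln2, an elastic fibre protein, was at 14.3, 14.6 and 19.0 TPM in LV and 11.9, 9.87 and 12.1 TPM in RV (-0.46 ± 0.15). Ogn, the proteoglycan osteoglycin, was at 38.2, 40.3 and 38.7 TPM in LV and 61.9, 47.2 and 45.8 TPM in RV (0.38 ± 0.15). Neither overlapped. In WT-PLN hearts 16 members were lower and 0 higher, with a median of -0.32, against 13.8% lower and a median of -0.165 over all genes there.

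**Figure D5:**
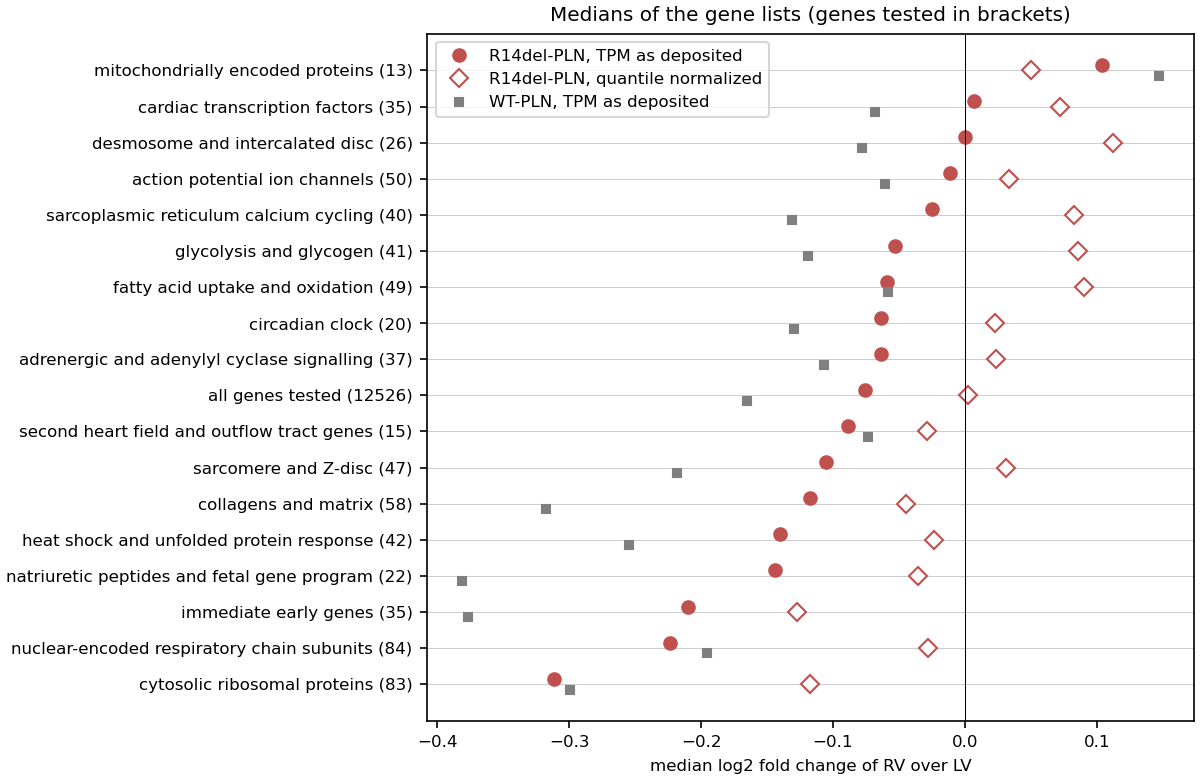
Median log2 fold change between RV and LV of R14del-PLN hearts for each pathway list, as deposited (filled circles) and after quantile normalization (open diamonds), with WT-PLN hearts as squares. Ribosomal, respiratory chain and immediate early genes have the lowest medians of R14del-PLN hearts as deposited (-0.31, -0.22 and -0.21), and their medians after normalization are -0.12, -0.028 and -0.13.

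The genes with the smallest p in R14del-PLN hearts were not all members of a list. Gstp2, a glutathione transferase, was at 22.9, 22.8 and 18.7 TPM in LV and 10.6, 12.4 and 11.6 TPM in RV. All RV samples lay well below all LV samples. Its log2 fold change was -0.84 ± 0.13 (adjusted p = 0.324), from -0.93 to -0.79 with 1 sample left out, and over both genotypes it fell by 0.69 ± 0.094 (adjusted p = 0.0200). Gstp2 has nearly identical copies in Gstp1 and Gstp-ps, so the division of reads between them is uncertain. It lies on chromosome 19 from 4040285 to 4046023.

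Other metabolic and redox genes of this order were also lower in RV. Fam213b, a prostaglandin synthase of the peroxiredoxin-like family, was at 66.4, 52.9 and 86.6 TPM in LV and 31.7, 40.3 and 42.2 TPM in RV, and fell by 0.84 ± 0.13 over both genotypes (adjusted p = 0.0200). Gpx4, which reduces lipid peroxides, was at 489, 494 and 599 TPM in LV and at 396, 362 and 386 TPM in RV, a log2 difference of -0.46 ± 0.11. Neither gene overlapped between the ventricles.

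Genes of transport, signalling and the cell surface followed. Aqp8, an aquaporin, was at 2.75, 1.67 and 3.25 TPM in LV and 0.601, 0.966 and 0.883 TPM in RV, and fell by 0.98 ± 0.14 over both genotypes (adjusted p = 0.0200). Igfals, which binds insulin-like growth factors in ternary complexes, was at 2.70, 1.94 and 2.96 TPM in LV and 0.612, 1.52 and 0.990 TPM in RV, and fell by 0.84 ± 0.12 (adjusted p = 0.0200). Tmem88, an inhibitor of Wnt signalling, was at 6.92, 6.70 and 6.32 TPM in LV and 4.22, 4.27 and 3.80 TPM in RV, and fell by 0.63 ± 0.095 (adjusted p = 0.0200). The ranges were apart for all 3. Rgcc, a regulator of the cell cycle, was at 13.3, 14.1 and 16.1 TPM in LV and 9.86, 8.74 and 10.8 TPM in RV, and fell by 0.60 ± 0.094 (adjusted p = 0.0231). AU021092 was at 2.40, 2.48 and 3.39 TPM in LV and 1.44, 1.55 and 1.38 TPM in RV, and fell by 0.62 ± 0.090 (adjusted p = 0.0200).

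The remaining genes of this order had smaller differences. Lims2, a focal adhesion protein, Tmem160 and Lsm1, a factor of mRNA decay, were at -0.48 ± 0.12, -0.56 ± 0.13 and -0.50 ± 0.12 on the log2 scale in R14del-PLN hearts. Cdk6, a cell cycle kinase, went the other way, at 0.844, 1.06 and 0.918 TPM in LV and 1.60, 1.78 and 1.65 TPM in RV (0.47 ± 0.11), without overlap.

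Of the 7 genes that rose over both genotypes, Kcnd2, Pfkfb1 and Rpl14-ps1 are described above. Sort1, a sorting receptor, was at 4.27, 6.96 and 6.86 TPM in LV and 11.1, 9.30 and 7.04 TPM in RV, and rose by 0.64 ± 0.13 (adjusted p = 0.0495). Aqp4, a water channel, was at 0.522, 1.57 and 0.733 TPM in LV and 4.21, 1.58 and 2.58 TPM in RV, and rose by 1.17 ± 0.20 (adjusted p = 0.0352). For both, an RV sample lay just above the highest LV sample. Mstn, the growth inhibitor myostatin, was at 0.108, 0.540 and 0.446 TPM in LV and 1.06, 0.381 and 1.44 TPM in RV, with overlap through RV sample 2. Mstn rose by 0.90 ± 0.16 over both genotypes (adjusted p = 0.0388), but in R14del-PLN hearts alone it was at 0.50 ± 0.23 (limma, unadjusted p = 0.0524). Rp1 rose by 0.81 ± 0.14 (adjusted p = 0.0352) and was at 0.585 ± 0.20 in R14del-PLN hearts. Further genes that fell were Gm42417, Cyfip2, Fuca2, Ankrd45, Haus8, Iah1 and 6430548M08Rik, at -1.001 to -0.53 on the log2 scale in R14del-PLN hearts.

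No gene passed the test of a chamber difference that depended on genotype. By interaction p, the 5 leading genes were Gm11037, Prr3, Fam60a, Gm17374 and Hils1. Gm11037 was at 1.52, 5.30 and 13.4 TPM in LV and 0, 0.991 and 0 TPM in R14del-PLN RV, and at 0 in all LV samples of WT-PLN hearts. Its annotated transcript is 60 bases long, which makes its TPM sensitive to few reads. Prr3 was at 1.20, 1.09 and 1.27 TPM in LV and 1.40, 1.83 and 1.26 TPM in R14del-PLN RV (0.19 ± 0.12), against -0.46 ± 0.12 in WT-PLN hearts. Fam60a, a subunit of the Sin3 repressor complex, was at 0.10 ± 0.15 in R14del-PLN and -0.72 ± 0.15 in WT-PLN hearts. Gm17374, whose annotated transcript has 102 bases, was at 51.4, 47.2 and 25.5 TPM in LV and 34.3, 59.1 and 17.9 TPM in R14del-PLN RV. Hils1 was at 0.660, 0.426 and 0.866 TPM in LV and 1.57, 1.11 and 1.06 TPM in RV (0.44 ± 0.15), without overlap, against -0.30 ± 0.15 in WT-PLN hearts.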

How the data were processed

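The deposited TPM values of 12 samples were used as the authors made them, 1 value per gene and sample. The study's methods describe polyA stranded libraries mapped to GRCm38 with CLC Genomics Workbench. Strand counting, and the program and annotation that gave the TPM values, are not given in the sources used here. Depth is unknown. Groups and numbers came from the sample labels.

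The limma package (version 3.58.1, R 4.3.3) was fitted to log2(TPM + 1) with moderated variances and a trend in intensity, in 1 model with 4 group means, 8 residual and 5.15 prior degrees of freedom. Errors of log2 fold changes are standard errors. Genes averaging 0.5 TPM or more were kept, and a call needed a Benjamini-Hochberg adjusted p no higher than 0.05 with a 1.5-fold change or more. Exact permutation tests enumerated the 20 divisions of 3 against 3. Python 3.11.15 was used for tables, matplotlib 3.10.9 for plots, statmod 1.5.0 to fit the block as random, and BLAST 2.17.0 to find transcripts alike at 95% over 80% of the shorter one. The model was tested on simulated data. Coordinates and lengths are from GENCODE vM21 (GRCm38), and promoters from RefSeq.

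The samples, gene lists and tests were chosen with earlier results of these data known. Genes were named by a rule: called genes (there were none), then the 20 smallest p with a mean of at least 1 TPM, the 2 smallest p in each pathway list, 8 fixed genes (Pln, Atp2a2, Sln, Tbx5, Hand1, Hand2, Irx4 and Myl2) and the 5 smallest interaction p. The average over both genotypes and its 33 genes were added after values were seen, as were Nppa, Ankrd1, Myl7, Myl4, Kcnip2, Ryr2, Casq2, Camk2d, Gm34302, Tie1, Ly6c1, Egfl7, Cidec, Mbp, Hbb-bt and the further list members named beside the counts. Alternatives were other pseudocounts, filters, fold limits and scalings, replicate blocks and each sample left out. After values were seen, removal of both replicate 3 samples and quantile normalization with a replicate block were added. Some genes that the rule or the lists name are not reported here.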

Additional observations from a re-analysis of the deposited data

How the results depend on the processing

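In R14del-PLN hearts, 0 genes passed the test between RV and LV, and 0 passed under every other alternative across all genes except those given here. With the replicate block in the 6 R14del-PLN samples alone, 100 genes passed. That fit had 2 residual and infinite prior degrees of freedom, so each gene took its spread from the intensity trend and not from its own samples. Genes that varied widely between samples could pass there, such as Sln, which had an unadjusted p of 0.196 in the main limma fit. Samples left out in turn gave 0 to 1, the 1 gene being RP24-226N22.2 without RV replicate 3 (log2 fold change -1.74, adjusted p = 0.0101). For WT-PLN hearts (0 genes) the count was 1 with no filter, 12 with the fixed replicate block, 2 without mitochondrially encoded genes, 4 with quantile normalization and replicate block, 0 to 2 with a WT-PLN sample left out, and 0 to 4 with an R14del-PLN sample left out (4 without RV replicate 2), since the spread is shared. The interaction (0 genes) gave 0 to 1 with a sample left out (Gm21961 without LV replicate 2 and RP23-263O15.12 without RV replicate 3 of WT-PLN hearts). The average over both genotypes (33 genes) gave 82 with no fold threshold, 8 at a fold change of at least 2, 6 with no filter, 95 with the fixed and 63 with the random replicate block, 18 without mitochondrially encoded genes, 1 with quantile normalization and replicate block, 0 without both replicate 3 samples of R14del-PLN hearts, and 0 to 81 with a sample left out. The fixed block kept all 33 genes (34.7% of its 95). The cause of these changes was not tested.

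The replicate numbers were not taken as pairs. Deviations from the group means of LV and RV samples with the same number correlated at 0.389, 0.2295 and 0.0542 in R14del-PLN hearts, and LV replicate 3 correlated best with RV replicate 2. In WT-PLN hearts they were 0.6575, 0.321 and 0.4567, and each sample correlated best with its own number, a hint from the data that the labels do not give. With the block as random, the consensus correlation was 0.0885.

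Of the log2 fold changes of 95 genes, 1895 alternative values kept direction and side of the threshold, 19 passed it, all with the block in the 6 samples alone, and 34 changed sign. Under quantile normalization, with or without the block, the sign turned for Atp2a2 (0.16), Irx4 (0.072), Myl2 (0.0073) and Kcnip2 (0.029). Upper quartile scaling turned Atp2a2 and Irx4 (both 0.077). Without mitochondrially encoded genes the values were 0.14 for Atp2a2, 0.14 for Irx4 and 0.063 for Kcnip2. Without both replicate 3 samples they were 0.19 for Atp2a2, 0.14 for Irx4, 0.071 for Myl2, 0.096 for Kcnip2 and -0.051 for Fam60a. A pseudocount of 0.1 gave -7.89e-06 for Camk2d. With a sample left out, values ran from -0.13 to 0.13 for Atp2a2, -0.053 to 0.15 for Hand2, -0.090 to 0.10 for Irx4, -0.27 to 0.012 for Myl2, -0.65 to 0.18 for Gm17374, -0.28 to 0.11 for Kcnip2, -0.050 to 0.34 for Ryr2, -0.39 to 0.0072 for Casq2 and -0.20 to 0.16 for Camk2d. Depth is unknown, so what it limits could not be measured.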

Other observations

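Among the 33 genes that passed over both genotypes, the R14del-PLN samples did not deviate equally. RV replicate 2 was the RV sample nearest the LV mean for 21 of the 33 genes, RV replicate 3 for 9 and RV replicate 1 for 3. RV replicate 1 was the farthest for 25. On the other side, LV replicate 2 was nearest the RV mean for 18 genes, LV replicate 1 for 11 and LV replicate 3 for 4, and LV replicate 3 was the farthest for 23. These counts were made after the values had been seen and carry no test.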
